A study of Saccharomyces cerevisiae with 22 samples.

Results

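The genes described here encode the protein disaggregase Hsp104, the cytosolic J-proteins Sis1, Ydj1 and Apj1, and the aggregate-sorting factors Btn2 and Cur1 of budding yeast, Saccharomyces cerevisiae. They are the 6 rows of the deposited table, of 5381 in all, whose gene name is HSP104, SIS1, YDJ1, APJ1, BTN2 or CUR1, and all 6 were found. The series sequenced ribosome footprints, the stretches of mRNA covered by a ribosome and so spared by RNase I, beside polyA RNA in 2 strains, BY4741 and EY0690, the second of which the labels call w303. Cultures in synthetic complete medium at 30 °C, at an OD600 of 0.3 to 0.4, were sampled with glucose present or 15 min after it was withdrawn. Each strain and condition has 2 footprint and 2 polyA libraries. Every culture, glucose and starved alike, received 100 ug/ml cycloheximide for 1 min, a drug that stops ribosomes on the mRNA. BY4741 also has 1 library of total RNA per condition, and EY0690 has 1 column per condition in which the authors pooled total and RiboZero RNA.

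Hsp104 is a ring-shaped ATPase of the AAA+ family that pulls single polypeptides out of protein aggregates. It works with Hsp70, which J-proteins bring to the aggregate and whose ATPase they stimulate: Sis1 and Ydj1 are the abundant general J-proteins of the cytosol, and Apj1 is a scarce relative. Btn2 and its paralog Cur1 act earlier, gathering misfolded proteins into deposits in the cytosol and the nucleus. Several of these genes are known targets of Hsf1, the heat shock transcription factor, and HSP104 also of Msn2 and Msn4, the general stress factors.

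In the RefSeq annotation of build R64 each gene has 1 coding exon and overlaps no other annotated gene. HSP104 (YLL026W) lies at chrXII:88623-91349 on the plus strand, SIS1 (YNL007C) at chrXIV:618507-619565 on the minus strand, YDJ1 (YNL064C) at chrXIV:505868-507097 on the minus strand, APJ1 (YNL077W) at chrXIV:481391-482977 on the plus strand, BTN2 (YGR142W) at chrVII:772454-773686 on the plus strand and CUR1 (YPR158W) at chrXVI:843262-844020 on the plus strand. The coding sequences run from 759 bases in CUR1 to 2727 in HSP104. Of all 28-base words in the 6 coding sequences, 0% occur elsewhere in the genome as exact matches. Neither BTN2 and CUR1 nor the J-protein genes therefore share an exact word of that length, and matches with mismatches were not searched for. The stretches from 250 bases before the start codon to 50 bases after it were searched for the stress response element of Msn2 and Msn4 (CCCCT, or AGGGG on the strand read) and for heat shock elements of 2 units (GAANNTTC or TTCNNGAA, each its own reverse complement) or of 3 alternating GAA and TTC units with 2 bases between them, on both strands. The 3 windows with a match are shown in the direction of transcription, with the matches in capitals, at chrXII:88373-88672, chrVII:772204-772503 and chrXVI:843012-843311 on the plus strand of RefSeq R64.
HSP104: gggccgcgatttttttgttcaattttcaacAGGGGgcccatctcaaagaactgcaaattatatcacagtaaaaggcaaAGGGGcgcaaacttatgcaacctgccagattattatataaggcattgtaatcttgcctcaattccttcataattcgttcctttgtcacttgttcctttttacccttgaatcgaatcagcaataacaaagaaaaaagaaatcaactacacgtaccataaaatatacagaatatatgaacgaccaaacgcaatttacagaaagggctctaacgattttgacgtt
BTN2: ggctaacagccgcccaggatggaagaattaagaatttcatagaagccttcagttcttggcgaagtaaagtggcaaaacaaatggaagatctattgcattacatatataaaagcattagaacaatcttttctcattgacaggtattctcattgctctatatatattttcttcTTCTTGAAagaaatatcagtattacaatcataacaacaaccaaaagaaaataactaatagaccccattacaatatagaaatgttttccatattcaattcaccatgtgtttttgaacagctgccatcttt
CUR1: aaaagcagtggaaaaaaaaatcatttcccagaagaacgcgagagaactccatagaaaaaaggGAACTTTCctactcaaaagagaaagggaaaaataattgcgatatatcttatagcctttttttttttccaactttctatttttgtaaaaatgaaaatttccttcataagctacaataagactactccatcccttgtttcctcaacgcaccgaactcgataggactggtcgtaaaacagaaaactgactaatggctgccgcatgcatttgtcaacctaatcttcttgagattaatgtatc
HSP104 has 2 stress response elements, starting at positions -220 and -172 relative to the start codon. At least 1 such match is present in 21.6% of 6007 windows of this kind over the genome, and at least 2 in 3.0%. BTN2 has 1 TTCNNGAA at position -79, a match that 12.9% of windows share, and CUR1 has 1 GAANNTTC at position -188, which 11.8% share. A 3-unit heat shock element is in 0.8% of windows and in none of the 6, and the windows of SIS1, YDJ1 and APJ1 hold none of these letters. The starts of the 3 J-protein genes, where the J domain is encoded in this family, are shown because the reads of the start region are compared further on. Capitals mark bases shared by all 3 genes.
SIS1: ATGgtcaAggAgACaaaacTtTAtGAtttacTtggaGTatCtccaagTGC
YDJ1: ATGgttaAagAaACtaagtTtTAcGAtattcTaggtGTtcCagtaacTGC
APJ1: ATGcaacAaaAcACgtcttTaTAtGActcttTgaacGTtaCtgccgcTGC
Over these first 50 coding bases the 3 genes share 19 positions, SIS1 and YDJ1 share 33, SIS1 and APJ1 23, and YDJ1 and APJ1 25.

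The deposited counts are divided into an initiation region and the downstream region of each coding sequence, and all levels below are downstream counts unless the initiation region is named. Downstream totals ran from 698310 to 8110916 counts per library. Levels are in CPM, counts scaled to a library of 1e6 after TMM scaling, which sets the bulk of genes level between libraries. Every TMM-scaled change is therefore measured against the bulk of mRNAs, and the amount per cell was not measured. Ratios in RNA not selected for polyA are scaled by library size unless TMM is named. Nothing in the labels states that replicates came from separate cultures, so p-values measure the spread between these libraries. The BY4741 footprint libraries numbered 2 stand apart. Across genes their log2 CPM correlated with those of the same-numbered polyA libraries at 0.946 with glucose and 0.942 without, against 0.822 to 0.875 in the other 6 footprint libraries, a description over genes, which are not replicates. What set them apart was not tested, and the fits and levels per kb that rest on footprints are given with and without them.

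HSP104 and BTN2 had the highest starved levels of polyA RNA per kb, and together with APJ1 they rose by more than 10-fold. SIS1 and CUR1 rose by between 2- and 3-fold, and YDJ1 did not pass the test. HSP104 polyA RNA stood at 139.6 and 147 CPM in the BY4741 glucose libraries and at 2712 and 1071 CPM in the starved ones. In EY0690 it stood at 414 and 525 CPM with glucose and at 6621 and 5031 CPM without. All 4 starved libraries lay above all 4 glucose libraries, a pattern seen in 12.1% of the 5304 genes tested. The log2 change over both strains was 3.68 ± 0.27 (SE, n = 8 libraries), with an adjusted p of 4.95e-07 in edgeR's quasi-likelihood test with Benjamini-Hochberg adjustment, the test behind every adjusted p below unless another is named.

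Among the J-proteins the RNA response differed by gene. APJ1 polyA RNA was low with glucose, at 26.9 and 23.4 CPM in BY4741 and 33 and 25.8 CPM in EY0690. Without glucose it reached 470.3 and 179 CPM in BY4741 and 657 and 441 CPM in EY0690, again with no overlap between conditions. Its log2 change of 3.93 ± 0.30 (adjusted p 6.55e-07 by edgeR) ranked 48th of 5304 genes, ahead of HSP104 at rank 55. SIS1, the essential J-protein of the group, went from 262 and 252 to 570.0 and 412 CPM in BY4741 and from 421 and 453 to 2071 and 1208 CPM in EY0690. The lowest starved BY4741 value fell below both EY0690 glucose values, while within each strain the conditions were apart. The SIS1 change was 1.42 ± 0.24 on the log2 scale (adjusted p 0.000706 by edgeR).

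YDJ1, the highest of the 3 J-protein mRNAs per kb in every glucose library, was at 509 and 448 CPM in BY4741 and 639 and 653 CPM in EY0690 with glucose. It was at 471 and 362 CPM in starved BY4741 and 798 and 647 CPM in starved EY0690. Its log2 change was -0.02 ± 0.16 (adjusted p 0.934 by edgeR), and 2 SE on either side give an interval from -0.35 to 0.31. A rise or fall of 2-fold lies outside that interval.

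The paralogs BTN2 and CUR1 both rose, by different amounts. BTN2 went from 67 and 51.5 to 3595 and 702 CPM in BY4741 and from 68.9 and 89.7 to 3801 and 2673 CPM in EY0690, with no overlap. The BTN2 change of 5.27 ± 0.43 on the log2 scale (adjusted p 1.37e-06 by edgeR) ranked 18th of 5304 genes. CUR1 went from 46.3 and 40.5 to 102 and 58.8 CPM in BY4741 and from 69.4 and 68.7 to 258 and 134 CPM in EY0690. The lower starved BY4741 value lay under both EY0690 glucose values. Its change was 1.18 ± 0.24 on the log2 scale (adjusted p 0.00217 by edgeR).

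In all, 5 of the 6 genes passed the threshold of 0.05 as higher in polyA RNA, where 20.4% of the genes tested did. Their median log2 change was 2.55, against -0.03 over all genes tested. In BY4741 alone SIS1 and CUR1 no longer passed, at 0.96 ± 0.26 (adjusted p 0.0589) and 0.92 ± 0.28 (adjusted p 0.0878) by edgeR, while HSP104, APJ1 and BTN2 still did. Leaving out single libraries ended none of the 5 calls.

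**Figure D1:**
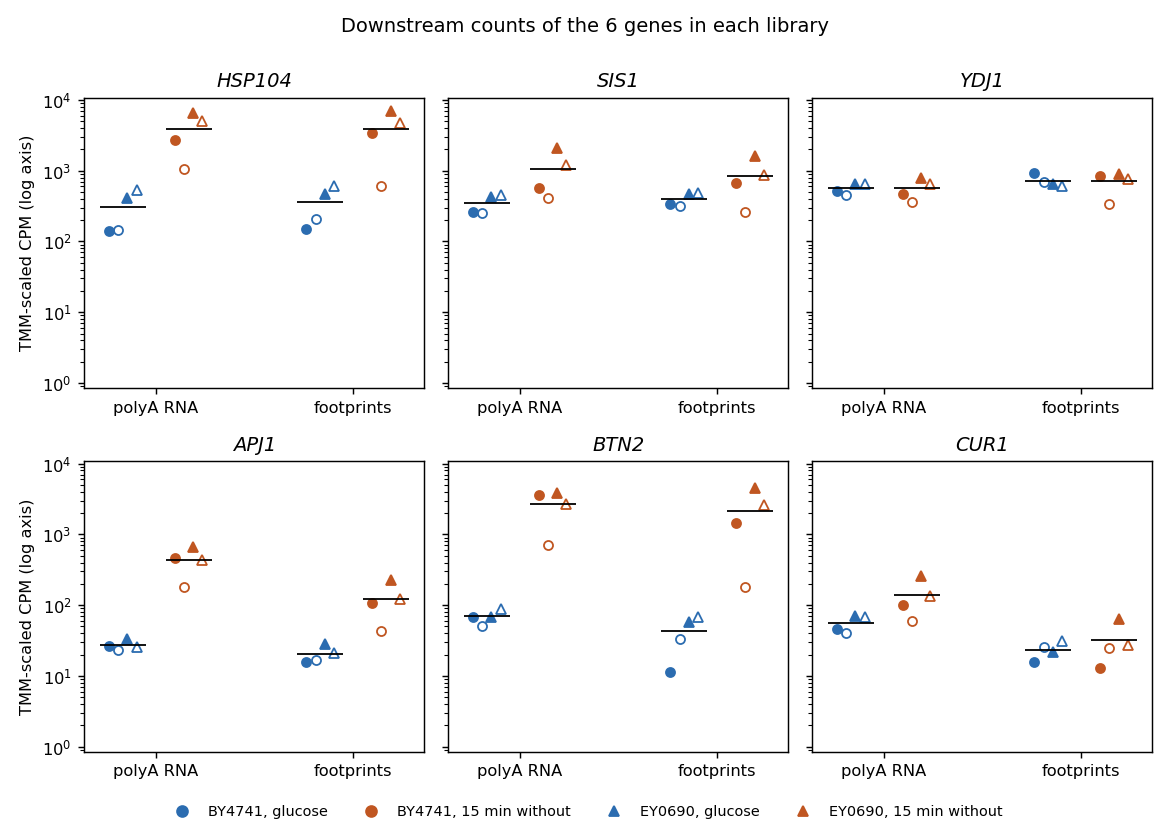
TMM-scaled CPM of each gene in every polyA RNA and footprint library, on a log axis, with circles for BY4741, triangles for EY0690, filled symbols for libraries numbered 1, open symbols for those numbered 2, and a line at the mean of 4 libraries. The starved libraries (orange) of HSP104, APJ1 and BTN2 lie above the glucose libraries (blue) in polyA RNA, and the open orange circle, starved BY4741 number 2, is the lowest starved value of every gene in polyA RNA.

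Within each strain, libraries of the same number can be set against each other. The BY4741 pair numbered 2 gave the smallest rise for each of the 5 genes that rose in polyA RNA. For HSP104 the folds were 19.4 and 7.27 in the BY4741 pairs and 16 and 9.58 in the EY0690 pairs. For BTN2 they were 53.6 and 13.6 in BY4741 and 55.2 and 29.8 in EY0690. For APJ1 they were 17.5 and 7.67 in BY4741 and 19.9 and 17.1 in EY0690. In both strains the pair numbered 1 gave the larger fold for each of these 5 genes.

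In RNA that was not selected for polyA, BTN2 had the largest ratio and YDJ1 the smallest, as in polyA RNA. In BY4741 total RNA HSP104 stood above APJ1 and CUR1 above SIS1, the reverse of their order in the polyA fit of both strains. The BY4741 polyA pair numbered 1 had the order of total RNA, with log2 ratios of 4.28 for HSP104, 4.13 for APJ1, 1.14 for CUR1 and 1.12 for SIS1. In the pair numbered 2 they were 2.86, 2.94, 0.54 and 0.71, the reverse. RNA of this kind has 1 library or pooled column per condition and no replicate, so the intervals cover counting error only and no test was made. In BY4741 total RNA the log2 ratio of starved over glucose, scaled by library size, was 5 for BTN2 (95% exact interval 4.66 to 5.35), 3.77 for HSP104 (3.61 to 3.95) and 3.13 for APJ1 (2.73 to 3.55). CUR1, SIS1 and YDJ1 stood at 1.75 (1.11 to 2.43), 1.2 (1.01 to 1.4) and -0.33 (-0.48 to -0.18) there. With TMM scaling across these and the polyA libraries, the BY4741 ratios were 5.2 for BTN2, 3.98 for HSP104 and 3.33 for APJ1. They were then 1.96 for CUR1, 1.41 for SIS1 and -0.13 for YDJ1, so the size of the YDJ1 ratio depends on the scaling. In the authors' pooled EY0690 column the values were 5.21 for BTN2, 3.25 for APJ1, 3.1 for HSP104, 1.68 for SIS1, 1.67 for CUR1 and 0.12 for YDJ1. A ratio of at least 2-fold upward, which 5 of the 6 genes showed in both, was found in 7.49% of the genes in BY4741 total RNA and in 9.82% of those in the pooled column.

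**Figure D2:**
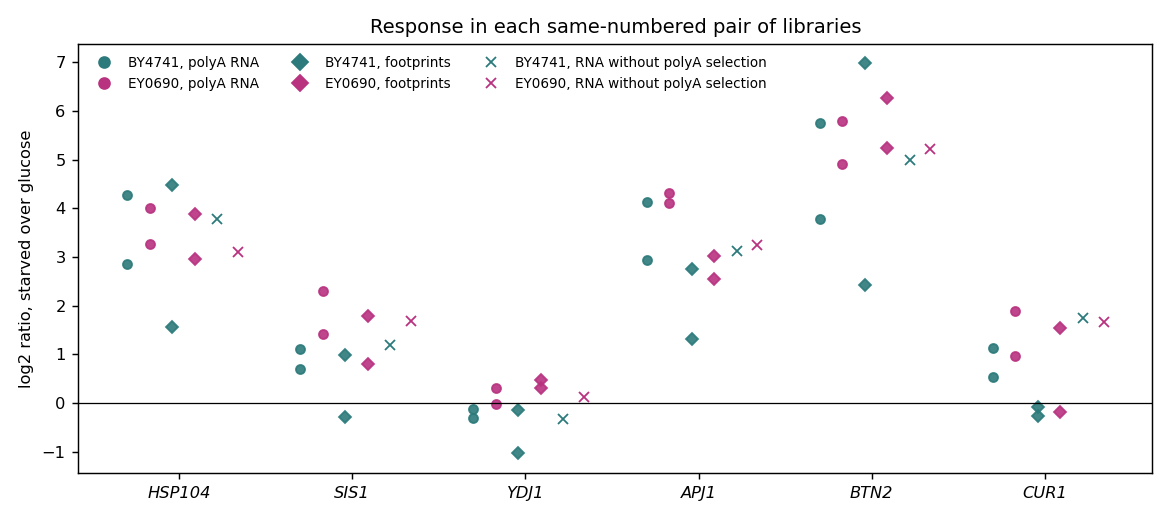
Log2 ratio of starved over glucose for each gene in each same-numbered pair of polyA (circles) and footprint (diamonds) libraries and in RNA without polyA selection (crosses, without replicates), with BY4741 in teal and EY0690 in magenta. Crosses are scaled by library size and the other symbols by TMM. BTN2 footprints span the widest range, from 2.42 to 6.97, and YDJ1 stays between -1.03 and 0.47.

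Footprints rose for HSP104, APJ1 and BTN2, and the other 3 genes did not pass. HSP104 footprints stood at 150.3 and 206 CPM in the BY4741 glucose libraries and at 3354 and 609 CPM in the starved ones. In EY0690 they stood at 473 and 613 CPM with glucose and at 6995 and 4771 CPM without. The starved BY4741 library numbered 2 fell just below the higher EY0690 glucose library, so the conditions overlapped when the strains were pooled and not within a strain. The log2 change was 3.46 ± 0.50 (SE, n = 8 libraries, adjusted p 0.00164 by edgeR) and 3.78 ± 0.28 without the 2 BY4741 libraries numbered 2.

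BTN2 had the largest footprint change of the 6. Its footprints went from 11.5 and 33.8 to 1448 and 181 CPM in BY4741 and from 57.8 and 68.8 to 4458 and 2577 CPM in EY0690. All 4 starved libraries lay above all 4 glucose libraries, as they did for APJ1 and for 3.85% of 5018 genes. The BTN2 log2 change of 5.46 ± 0.66 (adjusted p 0.00053 by edgeR) ranked 7th of 5018, and it was 6.17 ± 0.34 without the 2 libraries that stand apart. The BY4741 glucose value of 11.5 CPM rests on 40 counts.

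APJ1 footprints were at 15.9 and 17 CPM in BY4741 and 27.9 and 20.8 CPM in EY0690 with glucose. They reached 107 and 42.5 CPM in starved BY4741 and 226 and 121 CPM in starved EY0690. The log2 change of 2.46 ± 0.34 (adjusted p 0.00136 by edgeR) compares with 3.93 in polyA RNA, and it was 2.79 ± 0.30 without the libraries numbered 2 of BY4741.

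SIS1, CUR1 and YDJ1 did not pass the test in footprints. SIS1 went from 336 and 317 to 670.0 and 259 CPM in BY4741 and from 462 and 491 to 1599 and 857 CPM in EY0690, so that 1 starved library lay below all glucose libraries. Its log2 change was 0.93 ± 0.36 (adjusted p 0.229 by edgeR). Without the starved BY4741 library numbered 2 it was 1.23 ± 0.27 and passed (adjusted p 0.0082), as it did without both BY4741 libraries of that number (1.24 ± 0.26, adjusted p 0.00506) and in EY0690 alone (1.36 ± 0.27, adjusted p 0.00223). CUR1 was low throughout, at 15.6 and 25.9 CPM in BY4741 and 21.7 and 31.2 CPM in EY0690 with glucose, and at 13 and 24.6 CPM in BY4741 and 63.4 and 27.5 CPM in EY0690 without. Its log2 change of 0.31 ± 0.37 (adjusted p 0.781 by edgeR) has an interval of 2 SE from -0.43 to 1.05, and a single starved EY0690 library stood clear of the rest. Without both BY4741 libraries numbered 2 it was 0.46 ± 0.36 (adjusted p 0.444 by edgeR). YDJ1 footprints stood at 920.4 and 699 CPM in BY4741 and 650.1 and 616 CPM in EY0690 with glucose, and at 834 and 342 CPM in BY4741 and 898 and 769 CPM in EY0690 without. They were lower without glucose in both BY4741 pairs and higher in both EY0690 pairs, with a log2 change over both strains of -0.03 ± 0.34 (adjusted p 0.985 by edgeR) and of 0.21 ± 0.22 (adjusted p 0.583) without the same pair of libraries.

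Thus 3 of 6 genes passed as higher in footprints, where 2.93% of 5018 genes did, with a median log2 change of 1.70 against -0.03 over all genes. The number of genes called in either direction, 160 or 3.19% of those tested, was 103 without the BY4741 glucose library numbered 1, 487 without the starved BY4741 library numbered 2, 88 and 87 without the EY0690 glucose libraries numbered 1 and 2, and 80 and 102 without the starved EY0690 libraries numbered 1 and 2. HSP104, APJ1 and BTN2 passed in each of these. In BY4741 alone no gene of the table passed in footprints by edgeR, where HSP104 stood at 3.50 ± 0.94 (adjusted p 0.67), BTN2 at 5.17 ± 1.16 (0.449) and APJ1 at 2.18 ± 0.53 (0.541).

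**Figure D3:**
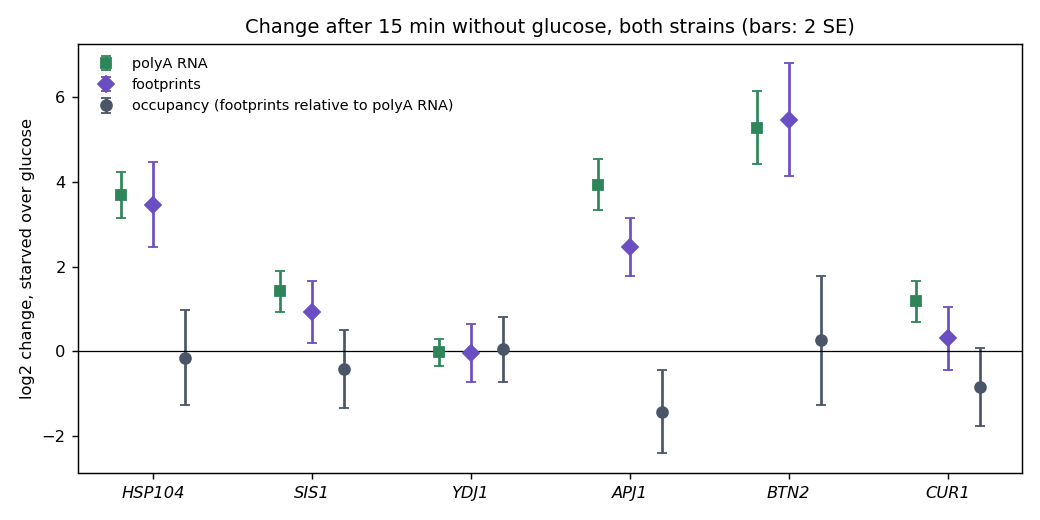
Log2 change from glucose to 15 min without it over both strains, for polyA RNA (squares), footprints (diamonds) and footprints relative to polyA RNA (circles), with bars of 2 SE on either side. The bars of APJ1 occupancy, at -1.42, lie below 0, and those of the other 5 genes' occupancy include it.

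Ribosome occupancy, the footprints of a gene relative to its polyA RNA, passed the test for 0 of the 6 genes, where 1.34% of 5018 genes passed. That share rests on 67 genes, which were 20 without the starved EY0690 polyA library numbered 1 and 225 without the starved BY4741 footprint library numbered 1. The change was -0.15 ± 0.56 for HSP104, -0.42 ± 0.46 for SIS1, 0.05 ± 0.38 for YDJ1 and 0.26 ± 0.76 for BTN2 on the log2 scale. Their intervals of 2 SE are wide, from -1.26 to 1.79 for BTN2 and from -0.71 to 0.80 for YDJ1, so a change of 2-fold in either direction lies inside the interval of BTN2. CUR1 stood at -0.83 ± 0.46 (adjusted p 0.393 by edgeR). Without both BY4741 footprint libraries numbered 2, where again 0 of the 6 passed, HSP104 changed sign to 0.18 ± 0.40 and BTN2 stood at 0.98 ± 0.58. SIS1 was then at -0.10 ± 0.37, YDJ1 at 0.30 ± 0.26 and CUR1 at -0.65 ± 0.47. Only footprint libraries were left out there, and the BY4741 polyA libraries numbered 2 stayed in. Their pair gave a BTN2 polyA log2 ratio of 3.77, against 5.74 in the pair numbered 1. Before adjustment 828 genes had p under 0.05, among them 1 of the 6, APJ1.

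APJ1 was the gene furthest from 0 in occupancy, with a log2 change of -1.42 ± 0.49 (unadjusted p 0.00986, adjusted p 0.153 by edgeR), rank 4946 of 5018 from the top. The ratio of its footprint CPM to its polyA CPM was 0.653 in BY4741 and 0.828 in EY0690 with glucose, near the medians over all genes of 0.63 and 0.672. Without glucose it was 0.23 in BY4741, at percentile 2.07 of all genes, and 0.315 in EY0690, at percentile 16.6. Taken over same-numbered libraries, which nothing shows to be paired, the ratios with glucose were 0.589, 0.726, 0.845 and 0.807. Without glucose they were 0.227, 0.237, 0.344 and 0.273, and the share of all genes with such a pattern was not counted. APJ1 occupancy did not pass in the main fit, and 24 alternative settings left it on that side of the threshold. It came to pass in 1 setting, without the starved BY4741 polyA library numbered 2, where the change was -1.79 ± 0.43. Without both BY4741 footprint libraries numbered 2 it was -1.06 ± 0.46 (adjusted p 0.196), and with initiation counts added to the downstream counts -0.97 ± 0.47 (adjusted p 0.388). CUR1 had a ratio of 0.477 in BY4741 and 0.383 in EY0690 with glucose and of 0.234 and 0.232 without.

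BTN2 was the gene whose occupancy differed most in rank between the strains, although no test was made of that. Its ratio was 0.383 with glucose and 0.379 without in BY4741, at percentiles 15.4 and 11.7, and 0.798 and 1.09 in EY0690, at percentiles 60.7 and 78.2. In BY4741 with glucose the 2 same-numbered ratios were 0.172 and 0.656. HSP104, SIS1 and YDJ1 stood above the median of all genes in both strains and both conditions, with ratios of 0.749 to 1.69.

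**Figure D4:**
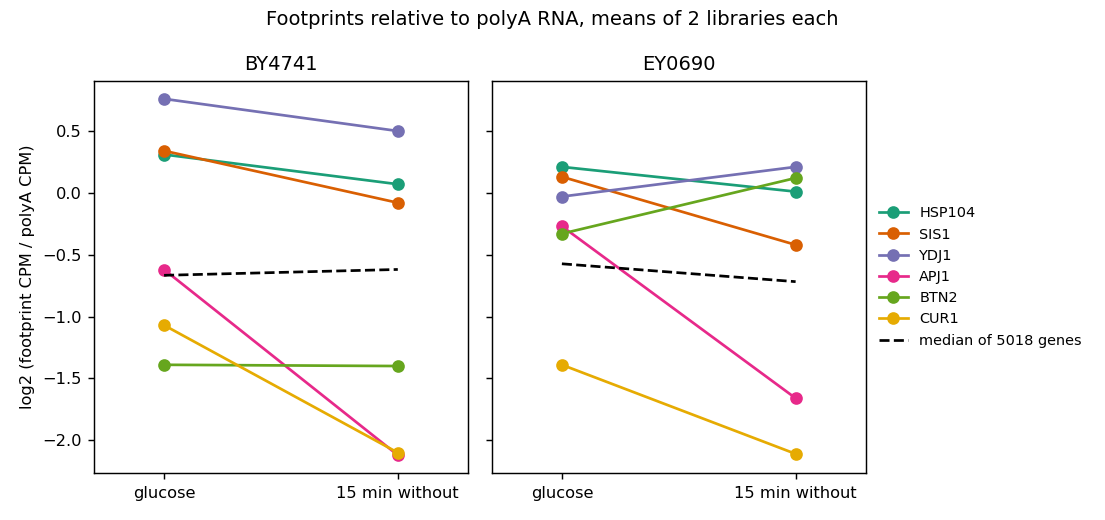
Log2 ratio of mean footprint CPM to mean polyA CPM (means of 2 libraries) with glucose and 15 min without, by strain, with 1 coloured line per gene and the median of 5018 genes dashed. APJ1 goes from near the median to well below it in both strains, and BTN2 lies below the median in BY4741 and above it in EY0690.

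Reads in the initiation region were compared with downstream reads as the share of a gene's footprints that lie at the start of the coding sequence. Over all genes that share was 8.16% to 14.5% in the glucose footprint libraries and 10.6% to 14.4% in the starved ones, and 3.73% to 4.79% in the polyA libraries. For APJ1 the shares with glucose were 6.78% and 1.78% in BY4741, from 4 and 3 reads, and 0 of 27 and 0 of 16 reads in EY0690, which allow shares of up to 11.1% and 18.8%. Without glucose they were 36.9% and 27.8% in BY4741 and 23.5% and 40.1% in EY0690, from 85 to 107 reads a library. All 4 starved libraries of APJ1 lay above all 4 glucose libraries. HSP104 showed this too, by a narrow margin, as did 7.6% of 2870 genes. APJ1 is among those 2870 genes only through its starved libraries, so that share is no measure for APJ1. Summed over libraries the APJ1 share was 2.58% (7 of 271 reads, 95% exact interval 1.04% to 5.25%) with glucose and 30.4% (388 of 1276, 27.9% to 33%) without, where the intervals cover counting error only.

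In the fit of both regions APJ1 met the low-count filter only through its starved libraries, so it had to differ to be tested, and no test of its share is given. APJ1 reads of the initiation region in polyA RNA made up 0% to 1.72% of the gene's reads with glucose and 1.01% to 4.03% without.

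Of the other 5 genes 0 passed in that fit by edgeR, where 0.697% of 2870 genes passed as higher. An unadjusted p under 0.05 was found for 0 of the 5, against 409 of all genes tested. HSP104 and YDJ1 reached the low-count filter on glucose libraries alone. SIS1, with 8 initiation counts in 1 glucose library, needed starved libraries to reach it. So did BTN2 (9, 31, 0 and 3 initiation counts with glucose) and CUR1 (17, 28, 2 and 1). The shares of all genes are therefore no measure for SIS1, BTN2 and CUR1. Summed over libraries the shares of the 5 genes with glucose and without were 4.15% and 10.9% for HSP104, 8.48% and 19.9% for SIS1, 7.85% and 8.73% for YDJ1, 8.22% and 21% for BTN2 and 12% and 27.7% for CUR1. These sums join both strains and weigh each library by its reads. Medians over libraries were 5.73% and 12.3% for HSP104, 7.41% and 25.1% for SIS1 and 6.18% and 7.84% for YDJ1. For BTN2 they were 6.96% and 16.6%, and for CUR1 9.33% and 36.3%. The fit takes log2 changes of initiation relative to downstream counts, not of these percentages. With library-size scaling they were 1.06 ± 0.49, 1.7 ± 0.63, 0.49 ± 0.53, 1.36 ± 0.74 and 1.41 ± 0.69 in that order. In the main fit, where each region had its own TMM factor, the log2 changes were 0.73 ± 0.54, 1.40 ± 0.71, 0.18 ± 0.59, 0.96 ± 0.84 and 1.02 ± 0.59. Without both BY4741 libraries numbered 2 they were 0.27 ± 0.52, 1.40 ± 0.64, 0.42 ± 0.51, 0.69 ± 0.68 and 1.5 ± 0.68, and 0 of the 5 passed by edgeR. SIS1 had 23.9% and 26.3% in starved BY4741 and 27.3% in 1 starved EY0690 library, but 7.47% in the other, inside the glucose range of 1.75% to 10.7%. BTN2 had 46.9% in the starved BY4741 library numbered 2 and 11.7% to 19.8% in the other 3 starved libraries.

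**Figure D5:**
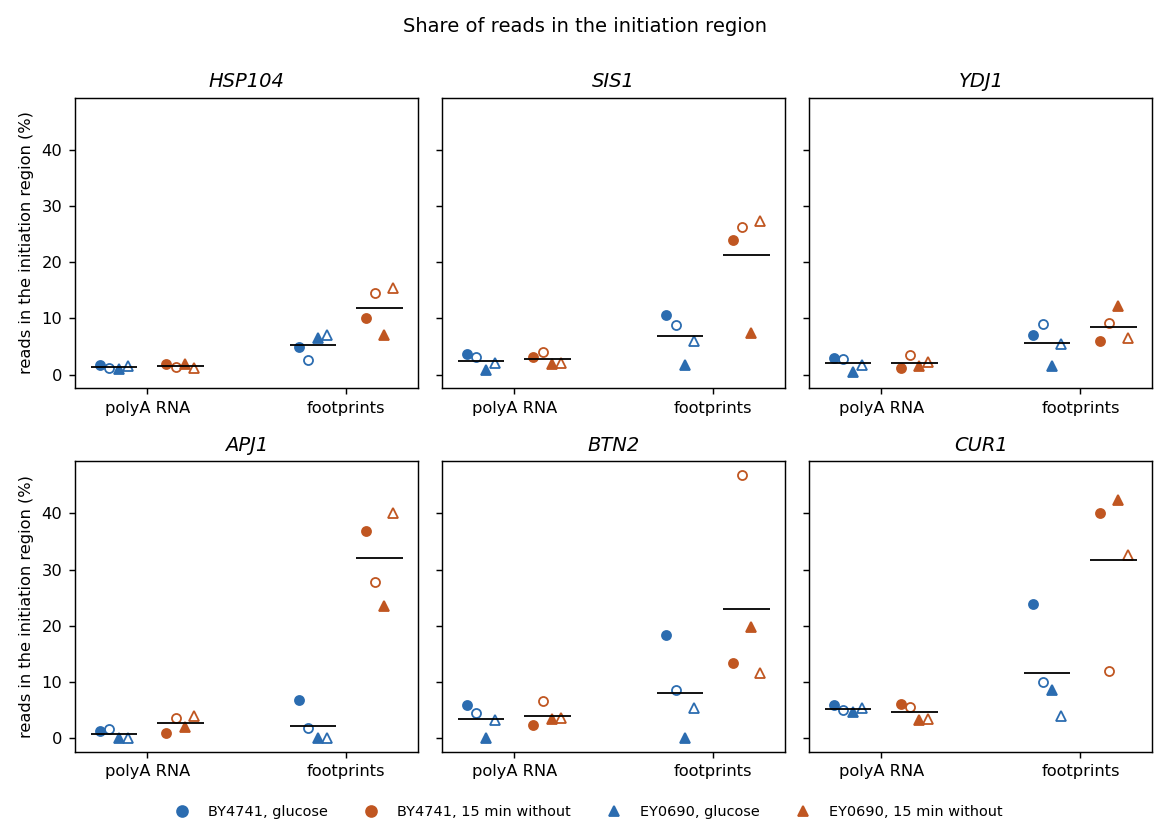
Share of each gene's reads, in percent, that fall in the initiation region, in every polyA RNA and footprint library, with symbols as in the plot of levels and a line at the mean of 4 libraries. APJ1 footprints go from at most 6.78% with glucose to between 23.5% and 40.1% without, while its polyA RNA stays at or below 4.03%.

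EY0690 had higher polyA RNA of 4 of these genes than BY4741, over both conditions together. In polyA RNA the strain difference, EY0690 over BY4741, was 1.67 ± 0.25 for HSP104 (adjusted p 0.000358), 1.26 ± 0.24 for SIS1 (0.00157), 1.00 ± 0.24 for CUR1 (0.0056) and 0.61 ± 0.16 for YDJ1 (0.0107) on the log2 scale by edgeR, so 4 of 6 passed as higher, where 20.2% of genes did. HSP104 at 139.6 and 147 CPM in BY4741 and 414 and 525 CPM in EY0690 with glucose shows the size of it. APJ1 at 0.54 ± 0.28 (adjusted p 0.146) and BTN2 at 0.51 ± 0.37 (0.298) did not pass by edgeR. Both passed without the starved BY4741 polyA library numbered 1, at 0.83 ± 0.28 (0.0283) and 1.09 ± 0.33 (0.0174). Strain cannot be told apart from how each strain's libraries were made. The growth protocol attached to the EY0690 samples numbered 1 names BY4741 alone, and strain was taken from their source name and strain label.

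In footprints HSP104 at 1.59 ± 0.46 (adjusted p 0.0298) and BTN2 at 1.80 ± 0.57 (0.0419) passed by edgeR, 2 of 6 genes, where 11.2% did. Both calls were lost without the BY4741 glucose library numbered 1 and without any single EY0690 footprint library, and that of HSP104 also without the BY4741 glucose library numbered 2, with values of 1.46 to 1.71 for HSP104 and 1.53 to 1.92 for BTN2. Without the starved BY4741 library numbered 1, SIS1 (1.18 ± 0.42, adjusted p 0.0483) and APJ1 (1.27 ± 0.37, 0.021) passed too. SIS1 also passed with library-size scaling (0.94 ± 0.26, adjusted p 0.0272 by edgeR) and in DESeq2 (0.98 ± 0.37, adjusted p 0.035). Without both BY4741 libraries numbered 2, HSP104 stood at 1.29 ± 0.28 (adjusted p 0.00581), BTN2 at 1.73 ± 0.32 (0.00214) and CUR1 at 1.24 ± 0.38 (0.0333), and SIS1 (0.68 ± 0.28, 0.0885), APJ1 (0.67 ± 0.31, 0.139) and YDJ1 (-0.28 ± 0.23, 0.416) did not pass.

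Whether the response to glucose removal differed between the strains was tested as an interaction, and 0 of 6 genes passed in either assay. In polyA RNA 0.17% of genes passed. SIS1 had the largest difference, with a response higher in EY0690 by 0.98 ± 0.40 on the log2 scale (unadjusted p 0.028, adjusted p 0.798 by edgeR). In footprints edgeR called 0 of 5018 genes, with 152 at an unadjusted p under 0.05 and 0 of the 6 among them, and DESeq2 called 3. The differences of the 6 genes ran from -0.04 ± 0.95 for HSP104 to 0.91 ± 0.73 for CUR1, and the intervals are wide. Without both BY4741 libraries numbered 2, BTN2 changed sign from 0.66 ± 1.15 to -1.16 ± 0.47 (adjusted p 0.272 by edgeR) and HSP104 stood at -1.04 ± 0.38 (adjusted p 0.205). The other 4 genes then lay between 0.08 ± 0.59 for APJ1 and 1.09 ± 0.71 for CUR1, and again 0 of the 6 passed.

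Per kb of the listed length, the order of the 6 mRNAs changed between conditions. With glucose mean polyA levels were 458 ± 81.5 CPM per kb (SD, n = 4) for YDJ1, 328 ± 98.7 for SIS1, 112 ± 71.1 for HSP104, 74.2 ± 19.8 for CUR1, 56.3 ± 12.7 for BTN2 and 17.2 ± 2.58 for APJ1. Only SIS1 over HSP104 and BTN2 over APJ1 were neighbours whose libraries did not overlap. Without glucose the order was BTN2 at 2186 ± 1148 CPM per kb, HSP104 at 1416 ± 901, SIS1 at 1007 ± 713, YDJ1 at 464 ± 156, APJ1 at 276 ± 124 and CUR1 at 182 ± 113. All neighbours overlapped over the 4 libraries, and the order held within each of the 4.

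In footprints per kb the order with glucose was YDJ1 at 587 ± 112 CPM per kb, SIS1 at 379.6 ± 83, HSP104 at 132 ± 80.5, BTN2 at 34.9 ± 20.7, CUR1 at 31.1 ± 8.7 and APJ1 at 12.8 ± 3.42, where BTN2 and CUR1 each led in 2 of 4 libraries. The neighbours YDJ1 and SIS1, SIS1 and HSP104, and CUR1 and APJ1 did not overlap there. Without glucose it was BTN2 at 1758 ± 1473, HSP104 at 1443 ± 981, SIS1 at 799.8 ± 529.5, YDJ1 at 578 ± 205, APJ1 at 78.2 ± 48 and CUR1 at 42.4 ± 28.7. Of these only YDJ1 over APJ1 did not overlap. BTN2 lay above HSP104 in 2 of the 4 starved libraries and SIS1 above YDJ1 in 2, while HSP104 lay above SIS1, and APJ1 above CUR1, in 3. Without the BY4741 libraries numbered 2, a set of levels added after the data were seen, both orders were the same. The starved means were then 2295 ± 1234 CPM per kb (SD, n = 3) for BTN2, 1849 ± 673 for HSP104, 985 ± 464 for SIS1, 678 ± 52.4 for YDJ1, 95.3 ± 41.1 for APJ1 and 45.7 ± 34.2 for CUR1. The 6 genes together took 0.0999% to 0.203% of polyA counts with glucose and 0.292% to 1.36% without. BTN2 and HSP104 made up 11.2% to 37.1% of that sum in the glucose libraries of both assays and 54.2% to 80.6% in the starved ones, where the lowest was 63.7% without the BY4741 footprint library numbered 2.

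The genes with the most similar profiles were ranked by the root mean square difference of log2 CPM over 16 libraries, after each strain and assay was centred on its own mean. HSP104 was nearest to EMI2, at 0.313, YHR097C at 0.355 and CYC7, an isoform of cytochrome c, at 0.361, among 5018 genes. APJ1 was nearest to EMI2 at 0.344, CTT1, the cytosolic catalase, at 0.347 and YHR097C at 0.378. BTN2 had no gene as near, with YJL144W at 0.497, the small heat shock protein gene HSP26 at 0.596 and RTC3 at 0.627. YDJ1 was nearest to OLA1 at 0.141, the proteasome subunit gene PUP1 at 0.155 and the threonine synthase gene THR4 at 0.159. SIS1 was nearest to YNL305C at 0.233, the glutaredoxin gene GRX2 at 0.238 and RCR1 at 0.242, and CUR1 to HSV2 at 0.221, PIB1 at 0.234 and LST8 at 0.238. Among the 6, HSP104 and APJ1 were closest at 0.446, and the paralogs BTN2 and CUR1 were apart at 2.355.

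Of the 19 other J-protein genes, 4 passed as higher and 3 as lower in polyA RNA, where 20.4% of all genes passed as higher and 19.2% as lower, with a median log2 change of 0.05. The largest were MDJ1, a J-protein of the mitochondrial matrix, at 1.86 ± 0.24 and JID1 at 1.38 ± 0.26 upward, and JJJ3 at -1.44 ± 0.29 and PAM18, a J-protein of mitochondrial import, at -0.86 ± 0.19 downward. Of 18 tested in footprints, 0 passed by edgeR. Of the 12 genes of the Hsp70 system and small heat shock proteins, 8 passed as higher in polyA RNA, against the same 20.4% of all genes, and 0 as lower, led by HSP42 at 5.59 ± 0.42 and HSP26 at 5.04 ± 0.37, both small heat shock proteins that bind unfolded protein. In footprints 6 of the 12 passed as higher, where 2.93% of all genes did, led by HSP26 at 4.69 ± 0.54 and the Hsp70 gene SSA4 at 3.66 ± 0.59. In occupancy 2 of the 12 passed as lower, where 1.06% of all genes did: HSP42 at -2.67 ± 0.61 and SSE2, an Hsp110 nucleotide exchange factor, at -1.95 ± 0.45.

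A list of 15 other core targets of Hsf1 shares HSP42, FES1, SSA1 and SSA2 with the Hsp70 system and small heat shock proteins. It also shares MDJ1 with the other J-protein genes and HSP78 with the list that follows. Of the 15, 13 passed as higher in polyA RNA, with a median log2 change of 1.26, where 20.4% of all genes did. In footprints 5 passed as higher, with a median of 0.74, where 2.93% of all genes did. HSP82, an Hsp90 gene, stood at 3.01 ± 0.32 in polyA RNA. A list of 10 other genes held AAA+ ATPases of protein quality control and the Cdc48 adaptor genes UFD1, NPL4 and SHP1. Of these 10, 4 passed as higher in polyA RNA and 1 in footprints, beside the same shares of all genes. The one in both was HSP78, the mitochondrial relative of HSP104, at 2.90 ± 0.24 and 2.51 ± 0.43. CDC48 followed at 0.69 ± 0.21 in polyA RNA. The median log2 change over all genes tested was -0.03 in both assays.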

How the data were processed

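The deposited table holds, per the file headers, whole-number counts of reads per gene, 1 count for the initiation region and 1 for the region downstream of it. Per the submitters' processing notes reads were aligned with Bowtie 0.12.8 to build R64. The counting program, the annotation, the treatment of reads that match more than 1 place and the region bounds were not given in the sources used here. Not used were the authors' 20 RPKM columns and 2 initiation columns of pooled RNA (22 per-sample columns in all) and 12 log2 ratio columns. Blank count cells, 60 in the starved BY4741 footprint library numbered 1 and 20 in starved BY4741 total RNA, were read as 0. The listed gene length, which the authors deposited beside the counts, scaled levels per kb.

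Downstream counts were scaled by TMM and tested in R 4.3.3 with edgeR 4.0.16 (quasi-likelihood F test). Adjustment, by Benjamini-Hochberg, was over all genes that reached 10 counts in 4 or more libraries of each kind (2 of 4 in 1 strain alone, 3 of 6 without the BY4741 footprint libraries numbered 2). Responses had strain as a covariate (8 libraries each). Occupancy was the assay by condition term over 16 libraries, with strain and its product with assay as covariates. The start-region share was the region by condition term over the 8 footprint libraries, each region scaled by its own TMM factor. That fit had each library as a block and no strain by region term. Strain differences came from the same fits, and strain by condition was a further term. The SE is the fitted log2 change over the root of F, and intervals are 2 SE either side. Fits were tested on simulated data with changes of 1 on the log2 scale. These were recovered for 97% of changed genes in the polyA response, 90% in the footprint response and 61.2% in occupancy. Recovery was 67% in the start-region share and 18% and 19% in the strain by condition terms of polyA RNA and footprints. The simulated counts had the same spread for every gene, no library that stands apart, and changes only in genes with many counts. They do not give the recovery in the real libraries, where the SE of the footprint response was 0.36 for SIS1 and 0.66 for BTN2. Alternatives were DESeq2 1.42.0 (Wald test and size factors), library-size scaling, no low-count filter, both regions summed, each strain alone, each library left out, the replicate number as a block, and no BY4741 footprint libraries numbered 2 (for levels per kb this last was added after seeing the data).

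Deviations of same-numbered libraries of a strain and assay from their group means were positively correlated over genes. The correlations were 0.149 and 0.297 in polyA RNA and 0.687 and 0.204 in footprints (BY4741, EY0690). They do not establish that the numbers pair the samples within a strain. The main fits were therefore unpaired, and those with the replicate number as a block are given as an alternative. The members and gene lists were chosen with earlier results of these data known. Named genes are the 6 members in every comparison, the 3 nearest in profile to each, and for each list the 2 genes called with the largest change in each direction. Sequences and positions are from the RefSeq annotation of R64, in which 5380 of the table's 5381 identifiers were found.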

Additional observations from a re-analysis of the deposited data

Results flagged for a closer look

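YDJ1 footprints in the starved BY4741 library numbered 2 stood at 342 CPM, apart from the other 3 starved libraries at 769 to 898 CPM. It was the 1 outlying library in 24 sets of 4 libraries checked with Dixon's test at the 95% level, where chance gives about 1 set in 20, and each set joins both strains.

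YDJ1 footprints also moved in opposite directions in the strains. They were 0.906 and 0.489 of the glucose level in the BY4741 pairs and 1.38 and 1.25 of it in the EY0690 pairs. The value of 0.489 rests on the same starved BY4741 library numbered 2 at 342 CPM. The difference of the log2 responses, EY0690 over BY4741, was 0.86 ± 0.66 and did not pass (adjusted p 0.997 by edgeR). Without both BY4741 footprint libraries numbered 2 this difference was 0.54 ± 0.38.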

How the results depend on the processing

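Over 776 recomputed values of single genes, 743 stayed on their side of the threshold, 13 came to pass, 20 ceased to pass and 0 called values changed sign. The cause was not tested. In BY4741 alone 3 of the 6 genes passed in polyA RNA, 0 in footprints and 0 in the start-region share, of 426, 0 and 0 genes in all, and 0 genes in occupancy. In EY0690 alone 538 genes passed in footprints, 148 in occupancy and 148 in the start-region share. Without both BY4741 footprint libraries numbered 2 the counts were 603 in footprints, 197 in occupancy, 52 in strain by condition of footprints and 130 in the start-region share. DESeq2 called 299 genes in footprints, 200 in occupancy, and 37 and 3 in strain by condition of polyA RNA and footprints. Both regions summed gave 273 genes in footprints and 20 in occupancy, and library-size scaling 61 in the start-region share.

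The replicate block called 429 genes in footprints (main result 160), 246 in occupancy (67) and 12 in strain by condition of footprints (0). Across strains, where nothing ties the numbers, it called 4 of the 6 genes in the strain difference of footprints, adding SIS1 and APJ1. It changed no other call of the 6 genes. No paired analysis of the start-region share was made, and the 1 gene it counts is APJ1, which met its filter only through starved libraries.

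With single libraries left out, members called ranged from 5 to 5 in polyA RNA, 3 to 4 in footprints, 0 to 1 in occupancy and in the start-region share, 4 to 6 and 0 to 4 in the strain differences of polyA RNA and footprints, and 0 to 0 in both interactions. All genes called ranged from 1573 to 2340, 80 to 487, 20 to 225, 0 to 144, 1556 to 2269 and 530 to 1725 in that order, and from 0 to 73 and 0 to 28 in the interactions of polyA RNA and footprints. Where an arm kept 1 library, it was assumed to vary like the others. The lowest counts limit CUR1, BTN2 and APJ1 footprints with glucose, at 16 to 56 counts in the EY0690 libraries.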
